A study of Mus musculus with 6 samples.

Results

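The urothelial cells of mouse bladders injured once with cyclophosphamide (CPP) were compared with those of bladders injured repeatedly. A cell was kept where it had more than 500 detected genes and at least 20 unique molecular identifiers (UMIs, one per captured mRNA molecule) summed over 6 keratins, Krt5, Krt7, Krt8, Krt15, Krt18 and Krt19. This keratin sum also had to exceed 2 times the UMIs of 4 stromal genes, Col1a1, Col1a2, Col3a1 and Dcn, and the cell had to be without any UMI of Ptprc, the pan-leukocyte gene, or Pecam1, an endothelial gene. The members were thus selected on their keratin, stromal, leukocyte and endothelial UMIs, and these 12 genes are given no test. The rule kept 26007 of the 38562 cell barcodes in the 4 injured libraries, or of 56629 in the 6 libraries of the series. They were 5756 and 6099 cells in acute replicates 1 and 2, and 9379 and 4773 cells in chronic replicates 1 and 2. The 12634 cells that the same rule kept in the 2 healthy libraries gave the level without injury.

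All 6 libraries came from the mucosal layer of wild-type C57BL/6 mice, given as 8 weeks old. The acute group had 1 intraperitoneal injection of CPP at 150 mg/kg and was collected on day 2. The chronic group had 4 injections at 75 mg/kg and was collected on day 11. Bladders of either group were taken 48 h after the final injection, so the single dose, the number of doses and the time since the first dose all differed between the groups and cannot be told apart. The study's methods say that the samples were handled in batches, and as the labels name none, a batch cannot be told apart from the group. The healthy mice had no CPP. Each group had 2 libraries, called biological replicates by the submitters. The study used more mice than libraries in each condition, the number of mice in a library is not given in the sources used here, and p-values measure the spread between libraries only. The study's methods say that every group held males and females, and Y-linked genes such as Ddx3y were detected in all 6 libraries, at 71.6 to 142 CPM, the scaled UMI level defined below.

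The urothelium is the lining of the bladder. Basal cells rest on the basement membrane, intermediate cells lie above them, and superficial umbrella cells face the urine behind a plaque of uroplakin proteins. The tissue renews slowly at rest and divides rapidly after damage. CPP is a DNA-alkylating drug, and its metabolite acrolein reaches the urine and kills the superficial cells first. A dividing cell copies its DNA in S phase and then builds the spindle and separates its chromosomes in G2 and M phase, and each phase has its own set of transcribed genes.

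The gated cells carried 50677817 to 75123022 UMIs per library, with a median of 6066 to 11139 UMIs per cell. A pair of libraries stood apart. In acute replicate 2 the rule kept 44.0% of cells, against 83.4% in acute replicate 1 and 83.4% and 89.2% in the chronic libraries. Its kept cells held 4.55 UMIs of the 4 stromal genes per cell against 1.17 to 1.62 in the other injured libraries. It listed 20180 genes, some of them from a newer annotation, against 15065 to 18295 in the other 5 libraries. The annotation release of each library is not given in the sources used here. In chronic replicate 1 ribosomal protein genes made up 31.6% of the UMIs, against 43.2% to 49.5% in the other 5 libraries, and the median cell was the shallowest. Just inside the keratin limit, at 20 to 24 UMIs, lay 300 and 151 acute cells and 89 and 237 chronic cells, and just outside it, at 15 to 19 UMIs, 153 and 192 acute cells and 51 and 136 chronic cells. The cells bore out their label, since Epcam, an epithelial adhesion molecule outside the rule, lay at 122 to 236 CPM and the uroplakin gene Upk3a at 2295 to 4752. The UMIs of the kept cells were summed per library. Levels are given in CPM, the gene's summed UMIs scaled by the library's total and by a factor that edgeR estimates for each library (TMM). The total left out mitochondrial and ribosomal protein genes. In UMIs summed over cells, fewer cells of a type and less RNA per cell cannot be told apart.

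Across all genes, the number called depended on the tool. The quasi-likelihood test of edgeR, adjusted by the Benjamini-Hochberg method over 13901 genes, found 0 genes under an adjusted p of 0.05 in either direction (0% called in each), and the smallest adjusted p was 0.709. Without adjustment, 614 genes (4.42%) were higher in acute and 313 genes (2.25%) higher in chronic injury at a p below 0.05. Leaving out 1 library moved these counts, to 331 and 318 without chronic replicate 1 and to 439 and 451 without chronic replicate 2, where the excess towards acute injury was gone. Such a fit holds 1 library in a group and has its own share of all genes. Changes in the list counts with 1 library left out are thus not comparable with 4.42% or 2.25%, and are named below without numbers. DESeq2, the other tool run, called 53 genes (0.381%) higher in acute and 18 genes (0.129%) higher in chronic injury at an adjusted p below 0.05. Both acute libraries lay above both chronic libraries for 2579 genes (18.6%) and below them for 2119 genes (15.2%). With the scaling of DESeq2 (RLE) these counts were 2333 and 2354, and in a fit of the 4 injured libraries alone 2308 and 2343, so the excess above depended on the scaling. The median log2 difference, acute minus chronic, was 0.02 over all genes, and the median of its absolute size was 0.23. The p-values given below for single genes are unadjusted and come from edgeR's test unless DESeq2 is named, and no gene is called changed. Without acute replicate 1, edgeR called 39 genes higher in acute and 24 higher in chronic injury at an adjusted p below 0.05.

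Genes of G2 and M phase had the largest median difference of the 23 pathway lists. Of 52 genes of G2 and M phase, all tested, 39 were higher in acute injury at an unadjusted p below 0.05 against 4.42% of all genes, and 0 were lower. Both acute libraries lay above both chronic libraries for 43 of the 52, against 18.6% of all genes, and DESeq2 called 12 of them against 0.381%. The median log2 difference of the list was 1.75, beside 0.02 over all genes. The list's CPM summed to 2682 and 1588 in the acute libraries, 1302 and 1176 in the chronic libraries and 975 and 910 in the healthy libraries. The order was acute, then chronic, then healthy, and the acute libraries were further apart from each other than acute replicate 2 was from chronic replicate 1. The list's median was 1.08 without acute replicate 1 and 2.01 without acute replicate 2, and between 1.65 and 1.75 without any one of the other libraries. The number at a p below 0.05 fell without acute replicate 1 and without either chronic library.

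The promoters of these genes are shown because the members move together and are known to share a CCAAT box, bound by the factor NF-Y. Many genes of G2 and M phase also hold a cell cycle homology element, here searched as TTTGAA or TTTAAA, and genes of S phase hold sites of E2F factors, here searched as TTTCGCGC or TTTGGCGC. Both strands of the 250 bases before the start were searched, in the first window that RefSeq gives for a gene (build GRCm38.p6), and no motif contains another. CCAAT stood in 76.1% of the promoters of the G2 and M genes (35 of 46 with a promoter) and in 70% of those of the S genes (21 of 30), against 36.4% of the promoters of all genes tested and 34.5% of all 27025 promoters. TTTGAA stood in 41.3% of the G2 and M promoters (19 of 46) and 16.7% of the S promoters, against 10.6% and 16.3%. TTTAAA stood in 15.2% and 3.33%, against 8.23% and 12.1%. The E2F letters stood in 4.35% of the G2 and M promoters and 16.7% of the S promoters (5 of 30), against 1.32% and 0.673%. These matches describe the letters and are neither sites nor causes. The last 200 bases before the start, 5′ to 3′ on the gene's strand, are given for the 3 G2 and M genes of smallest p that the table holds, and for the S gene of smallest p that holds the E2F letters, with matched motifs in capitals. They are Hmgb2 (chr8:57511643-57511842, plus strand), Cks2 (chr13:51645032-51645231, plus strand), Ttk (chr9:83834489-83834688, plus strand) and Dtl (chr1:191575545-191575744, minus strand).
Hmgb2: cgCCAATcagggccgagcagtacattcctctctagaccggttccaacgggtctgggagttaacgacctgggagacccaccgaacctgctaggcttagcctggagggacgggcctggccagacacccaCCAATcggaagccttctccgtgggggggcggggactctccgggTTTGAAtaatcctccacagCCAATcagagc
Cks2: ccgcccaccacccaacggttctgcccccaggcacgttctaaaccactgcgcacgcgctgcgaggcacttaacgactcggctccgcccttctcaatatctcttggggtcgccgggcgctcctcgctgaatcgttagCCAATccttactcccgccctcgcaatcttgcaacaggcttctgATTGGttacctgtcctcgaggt
Ttk: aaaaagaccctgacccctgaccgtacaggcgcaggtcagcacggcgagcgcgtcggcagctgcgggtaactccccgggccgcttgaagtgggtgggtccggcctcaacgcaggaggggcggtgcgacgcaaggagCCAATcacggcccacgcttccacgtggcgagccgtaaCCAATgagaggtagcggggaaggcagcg
Dtl: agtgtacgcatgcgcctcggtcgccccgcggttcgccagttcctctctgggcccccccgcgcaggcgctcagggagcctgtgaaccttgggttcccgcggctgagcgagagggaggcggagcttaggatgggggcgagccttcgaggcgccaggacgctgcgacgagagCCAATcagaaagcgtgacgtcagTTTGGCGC
The Hmgb2 window held CCAAT 3 times, the last of them near the end of the window, together with TTTGAA. For Hmgb2 the RefSeq start that sets the window lies upstream of the GENCODE start given below. The Cks2 and Ttk windows each held CCAAT 2 times. The Dtl window held CCAAT once, and its E2F letters were the last bases before the start.

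**Figure D1:**
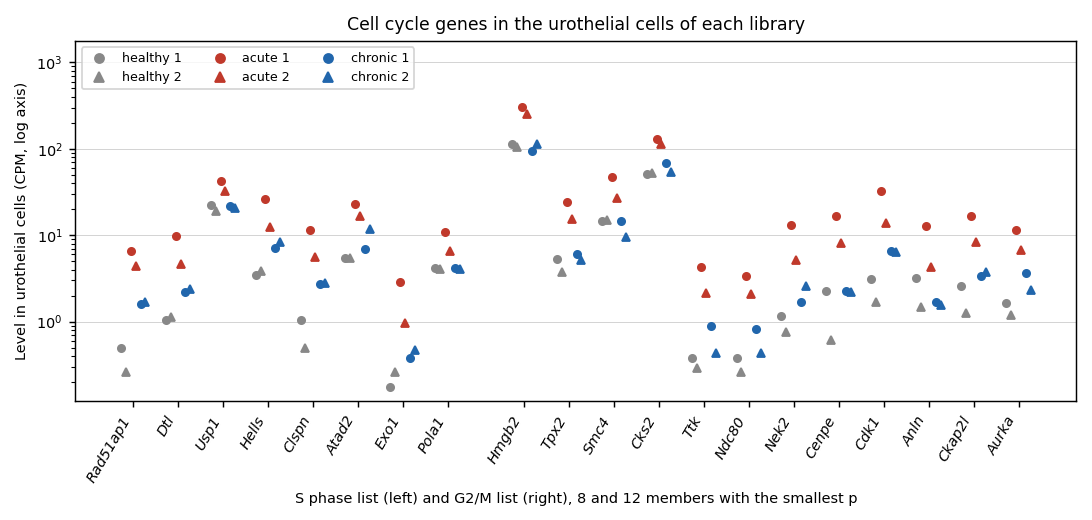
Levels of the 8 S phase genes and 12 G2 and M genes of smallest p, in CPM on a log axis, in the gated urothelial cells of each library, with one point per library in the healthy, acute and chronic groups. For Hmgb2 the acute libraries stood at 306 and 255, above the chronic libraries at 93.8 and 114.

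Hmgb2, a chromatin protein abundant in dividing cells, had the smallest p of all genes. It is ENSMUSG00000054717, on chromosome 8 from 57511907 to 57515999 in GRCm38. It stood at 306 and 255 CPM in the acute, 93.8 and 114 CPM in the chronic and 113 and 105 CPM in the healthy libraries. The acute libraries were well above all the others, and the chronic libraries were at the healthy level. The log2 difference was 1.43 ± 0.20 (SE), with an unadjusted p of 0.000161 by edgeR and an adjusted p of 4.46e-06 by DESeq2. Tpx2, which helps build the mitotic spindle, was at 24.4 and 15.2 CPM in acute and 6.04 and 5.17 CPM in chronic injury (log2 difference 1.82 ± 0.32). Smc4, a subunit of the condensin that compacts chromosomes, was at 46.9 and 27.1 CPM against 14.5 and 9.48 CPM (1.62 ± 0.32). Its condensin partner Smc2 was at 48.9 and 23.5 CPM against 11.3 and 11.99 CPM (1.64 ± 0.38). In each of these genes acute replicate 1 was the highest library and the groups did not overlap. Cks2, a small protein that binds cyclin-dependent kinases, was at 129 and 113 CPM against 67.8 and 54.5 CPM, with 51.3 and 52.2 CPM in healthy cells.

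Familiar cycle genes, chosen after their values were seen, were read beside them. Mki67, which encodes the proliferation antigen Ki-67, was at 36.3 and 19.2 CPM in acute and 8.08 and 7.25 CPM in chronic injury, and at 6.96 and 1.79 CPM in healthy cells. Top2a, the topoisomerase that untangles chromosomes, was at 62.4 and 30.3 CPM against 11.9 and 13.5 CPM. Ube2c, which tags mitotic proteins for destruction, was at 234 and 86.6 CPM against 25.1 and 37.2 CPM. All 3 were highest in acute replicate 1, and acute replicate 2 still lay above both chronic libraries. Cenpe, a kinesin that moves chromosomes, had the largest log2 difference of the list, 2.48 ± 0.61, at 16.9 and 8.09 CPM against 2.27 and 2.19 CPM. Not all members followed. Cenpf, a kinetochore protein, was at 95.7 and 57.0 CPM in acute and 58.9 and 126 CPM in chronic injury, and Tubb4b, a tubulin, at 393 and 231 CPM against 518 and 245 CPM. In both genes the groups overlapped. Tubulins and Hmgb2 have near-identical copies elsewhere in the genome, so that their counts are less certain.

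S phase genes showed the same direction with a smaller size. Of 42 genes, all tested, 22 were higher in acute injury at an unadjusted p below 0.05, against 4.42% of all genes, and 0 lower. Both acute libraries lay above both chronic libraries for 32, against 18.6%, and DESeq2 called 1, against 0.381%. The median log2 difference was 0.82, and it was 0.46 without acute replicate 1 and 1.10 without acute replicate 2. As for the G2 and M list, fewer genes had a p below 0.05 without acute replicate 1 or either chronic library. Dtl, which marks replication proteins for destruction, was at 9.69 and 4.59 CPM in acute and 2.22 and 2.37 CPM in chronic injury. Hells, a chromatin remodeller, was at 26.4 and 12.4 CPM against 7.06 and 8.37 CPM. Usp1, a deubiquitinase of DNA repair, was at 42.5 and 32.7 CPM against 22.0 and 20.7 CPM, and Rad51ap1, a protein of homologous recombination, at 6.51 and 4.46 CPM against 1.58 and 1.69 CPM. These 4 genes had the smallest p of the list, between 0.0033 and 0.00771, and acute and chronic libraries did not overlap in any of them. Pcna, the sliding clamp of DNA polymerase, differed from them, at 30.7 and 22.9 CPM in acute, 29.8 and 31.3 CPM in chronic and 18.7 and 17.8 CPM in healthy cells. Both injured groups stood above the healthy libraries for Pcna, with no separation between them (log2 difference -0.19 ± 0.21).

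The chronic libraries were nearer to healthy cells for most of these genes. On the log2 scale the healthy mean was nearer to the chronic than to the acute mean for 41 of the 43 G2 and M genes and 31 of the 32 S genes in which both acute libraries were above both chronic libraries. Over all genes of this kind, the healthy mean was nearer to chronic for 46.0%. Npm1 was an exception among the genes of smallest p, with healthy levels on the acute side.

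To see in which cells the difference lay, each gated cell with at least 3000 UMIs was thinned to 3000 UMIs and given a position score. The score was the difference of basal UMIs (Krt5, Krt14 and Krt15) and luminal UMIs (Upk1a, Upk1b, Upk2, Upk3a and Krt20) divided by their sum plus 1. Shallower cells were left out, 358 in chronic replicate 1, 113 in acute replicate 2 and 17 in healthy replicate 2. The thinned cells of all 6 libraries were split by this score into 3 groups of equal size, basal-most, middle and luminal-most. The G2 and M list was higher in acute injury in each, with a median log2 difference of 1.89 in basal-most, 1.12 in middle and 1.32 in luminal-most cells, and 35, 26 and 35 of its genes at an unadjusted p below 0.05. For the S list the medians were 0.91, 0.51 and 0.82, and the counts 14, 9 and 25. Hmgb2 was at 600 and 369 CPM in acute and 138 and 163 CPM in chronic basal-most cells, 189 and 190 CPM against 87.3 and 92.9 CPM in middle cells, and 188 and 202 CPM against 82.8 and 102 CPM in luminal-most cells. The acute and chronic libraries did not overlap in any of the 3 groups, and the acute libraries were far apart only in the basal-most cells. In each of the 3 groups 0 genes passed an adjusted p below 0.05 by edgeR, and without adjustment 483, 367 and 503 genes were higher in acute and 268, 252 and 362 higher in chronic injury at a p below 0.05.

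**Figure D2:**
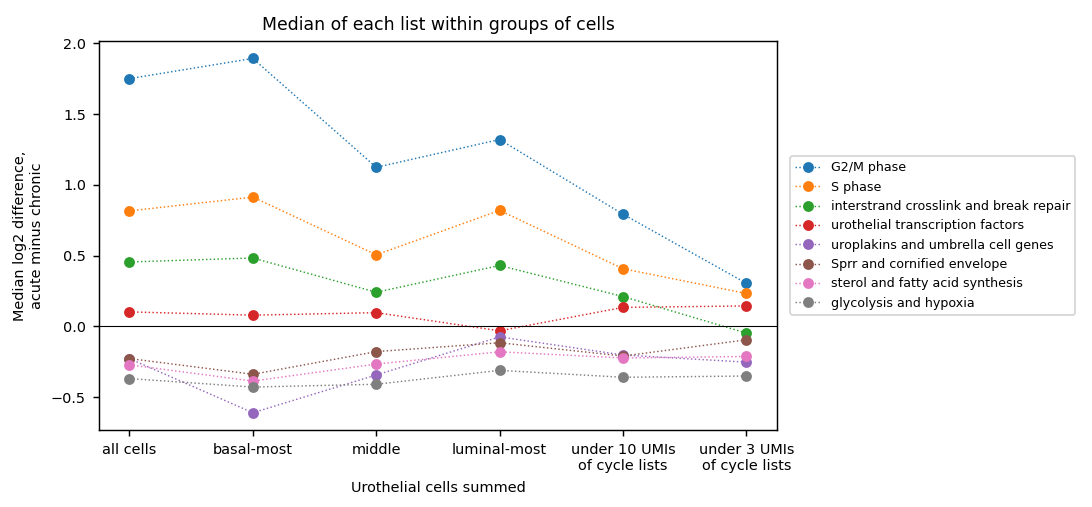
Median log2 difference, acute minus chronic, of a selection of the gene lists in all gated cells, the basal-most, middle and luminal-most cells and the cells with few cycling UMIs. The uroplakin list shares genes such as Upk1a with the score that split the position groups, so its values there are a description only. The G2 and M list lay at 1.89, 1.12 and 1.32 in the 3 position groups and at 0.30 in cells with fewer than 3 UMIs of the cycling lists.

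Counted as cells, the same lists gave a picture that depended on the limit. As for the position score, gated cells with fewer than 3000 UMIs were left out. The share of cells with at least 3 of 3000 UMIs on the S and G2 and M genes was 49.1% and 35.3% in acute, 53.1% and 36.1% in chronic and 23.3% and 30.3% in healthy libraries. The acute and chronic libraries overlapped, at 42.2% ± 9.72 (SD) and 44.6% ± 12.1 (SD), and the exact two-sided permutation test over libraries gave p = 0.667, where the smallest p that 2 libraries against 2 allow is 0.333. At a limit of 5 UMIs the shares were 28.6% and 12.1% against 19.1% and 10.1%. At 10 UMIs, a limit added after the distribution over cells was seen, 17.2% and 5.75% of acute cells and 2.63% and 2.85% of chronic cells passed, with 1.35% and 0.312% of healthy cells, and the exact permutation test gave its smallest p, 0.333. Acute replicate 1 had the highest share at that limit and the acute libraries differed from each other by more than acute replicate 2 differed from the chronic libraries. Cells with 1 or 2 such UMIs were common in every library. In cells under the limit of 10, Tubb4b alone supplied 21.0% of the lists' UMIs as a mean over libraries, and 35.1% in chronic replicate 1. In cells with fewer than 10 such UMIs the median log2 difference was 0.79 for the G2 and M list and 0.41 for the S list, and in cells with fewer than 3 it was 0.30 and 0.23. These cells were split on the same genes, so the smaller medians are a description only.

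**Figure D3:**
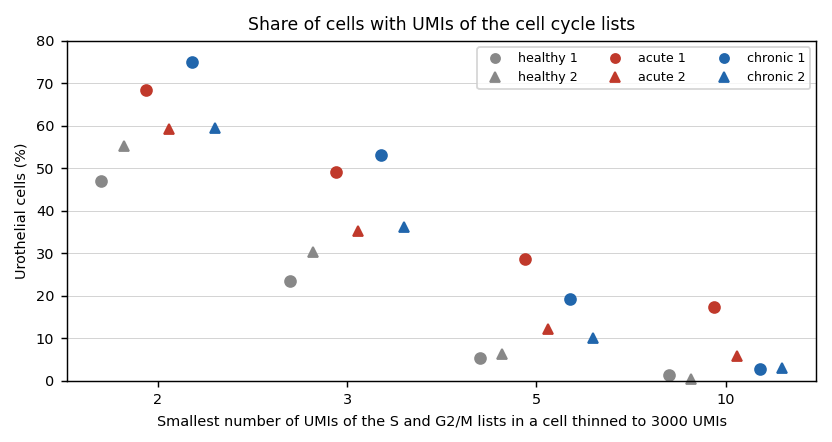
Percent of gated urothelial cells with at least 3000 UMIs, thinned to 3000 UMIs, that reached a given number of UMIs on the S and G2 and M genes, with one point per library. At 3 UMIs the acute and chronic libraries overlapped (49.1% and 35.3% against 53.1% and 36.1%), and at 10 UMIs both acute libraries lay above both chronic libraries (17.2% and 5.75% against 2.63% and 2.85%).

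CPP metabolites link opposite DNA strands, so genes of interstrand crosslink and double-strand break repair were read as well. Of 38 tested, 10 were higher in acute injury at an unadjusted p below 0.05, against 4.42% of all genes, and 0 lower. Both acute libraries lay above both chronic libraries for 19, against 18.6% of all genes, and below them for 2, and the median log2 difference was 0.46. Without acute replicate 1 the median was 0.15, without chronic replicate 1 it was 0.47 and without chronic replicate 2 it was 0.60. Fewer genes were higher at an unadjusted p below 0.05 in each of these. Usp1, given above, is in both this list and the S list. H2afx, the histone variant phosphorylated at DNA breaks, was at 42.9 and 40.7 CPM in acute and 24.6 and 18.5 CPM in chronic injury. Ube2t, the ubiquitin-conjugating enzyme of the Fanconi pathway, was at 13.5 and 8.32 CPM against 3.34 and 3.56 CPM, and Chek1, a checkpoint kinase, at 4.68 and 3.01 CPM against 1.17 and 1.51 CPM. In cells with fewer than 3 UMIs of the cycling lists the median of the repair list was -0.05. Targets of p53, the damage-induced transcription factor, were read beside them. Of 34 tested, 2 were higher in acute injury at an unadjusted p below 0.05, near the 4.42% of all genes, and 0 were lower, with a median log2 difference of 0.14. Both, Ckap2 and Psrc1, also belong to the G2 and M list. Without acute replicate 1 the median was -0.12, without chronic replicate 1 it was 0.11 and without acute replicate 2 it was 0.32. Cdkn1a, the cell cycle inhibitor p21, was at 816 and 417 CPM in acute and 625 and 493 CPM in chronic injury. The injured groups overlapped for Cdkn1a, and all 4 injured libraries stood above the healthy libraries at 272 and 276 CPM.

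**Figure D4:**
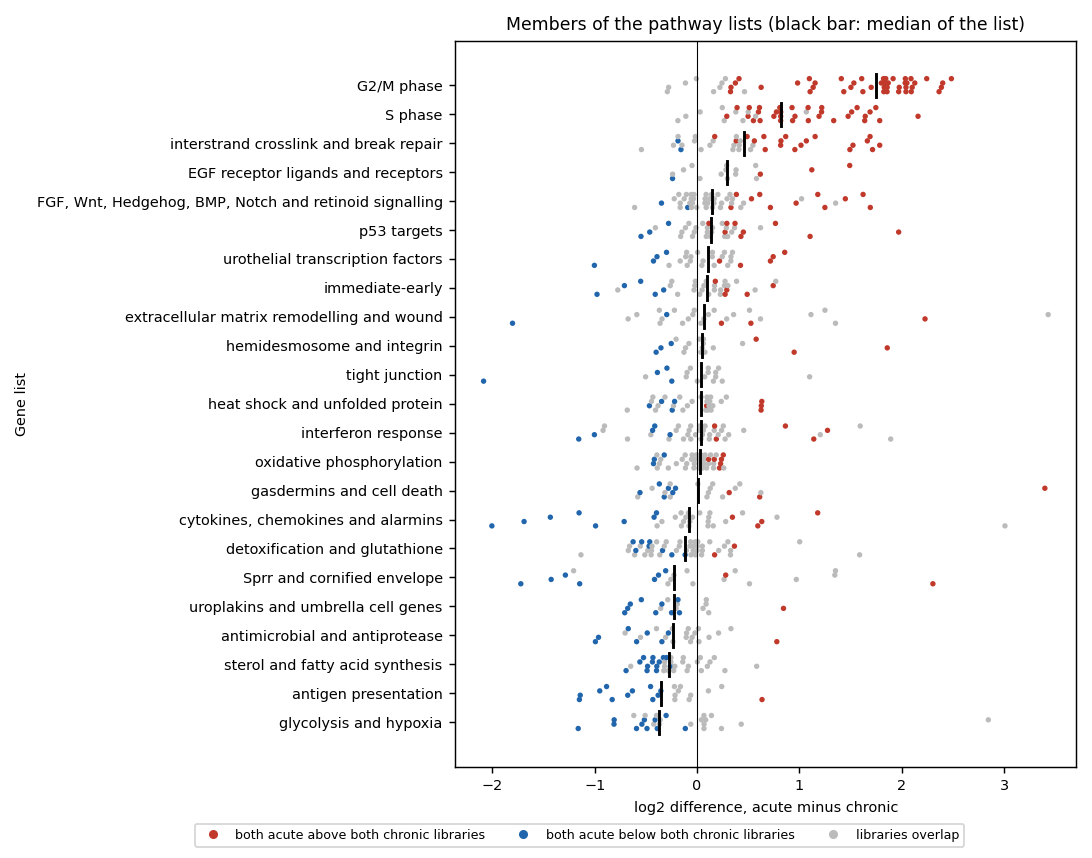
Log2 differences, acute minus chronic, of the members of each gene list, with one point per gene and the list's median marked. The G2 and M list had a median of 1.75 and the S list 0.82, and every other pathway list had a median between -0.37 and 0.46.

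Leaving out 1 injured library at a time turned the sign of the median for 13 of the 23 pathway lists. The 10 that kept it were the G2 and M, S, repair, immediate-early, signalling, cytokine, uroplakin, sterol, antigen presentation and glycolysis lists.

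Outside the cell cycle lists, the genes of smallest p that were higher in acute injury included Npm1, Nap1l1 and Hmgn2. The 15 named in each direction had a mean of at least 20 CPM and no overlap between acute and chronic libraries. Of these 30, 22 passed an adjusted p of 0.05 by DESeq2, against 0.381% of all genes higher in acute and 0.129% higher in chronic injury. Both tools used the same counts, so choosing the 30 by edgeR's p largely fixed this number, and it is a description only. Npm1, a nucleolar protein of ribosome assembly, was at 1140 and 1249 CPM in acute, 560 and 605 CPM in chronic and 1023 and 875 CPM in healthy libraries. Its chronic libraries were the ones that stood apart, below both acute and healthy libraries (log2 difference 1.04 ± 0.18, unadjusted p = 0.000711). The difference was as large within basal-most (1.08), middle (1.03) and luminal-most cells (0.95), and 0.98 in cells with fewer than 3 UMIs of the cycling lists. Npm1 has many processed pseudogenes, and its values are uncertain to that extent. Nap1l1, a nucleosome assembly protein, was at 132 and 117 CPM in acute, 62.9 and 71.4 CPM in chronic and 76.5 and 74.2 CPM in healthy libraries. Hmgn2, a nucleosome-binding protein, was at 132 and 127 CPM against 55.1 and 71.4 CPM, with 53.7 and 47.5 CPM in healthy cells. For these genes the healthy libraries were near the chronic ones.

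Rpa3, a subunit of the single-strand DNA binding complex, was at 41.3 and 51.0 CPM in acute and 22.4 and 25.9 CPM in chronic injury. Lig1, the ligase that joins replicated fragments, was at 57.4 and 35.7 CPM against 17.7 and 23.1 CPM, and Knstrn, a spindle protein, at 67.4 and 34.0 CPM against 13.8 and 16.6 CPM. These replication and division genes were outside the fixed lists and had the same order as the listed ones, with the healthy libraries lowest or near the chronic ones. Dnajc2, a chaperone of the ribosome, was at 74.4 and 70.8 CPM against 43.1 and 43.4 CPM, with 59.0 and 64.6 CPM in healthy cells. BC005561, Wbp5 and Fam92a completed the 15, with log2 differences of 0.90, 0.91 and 0.86.

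**Figure D5:**
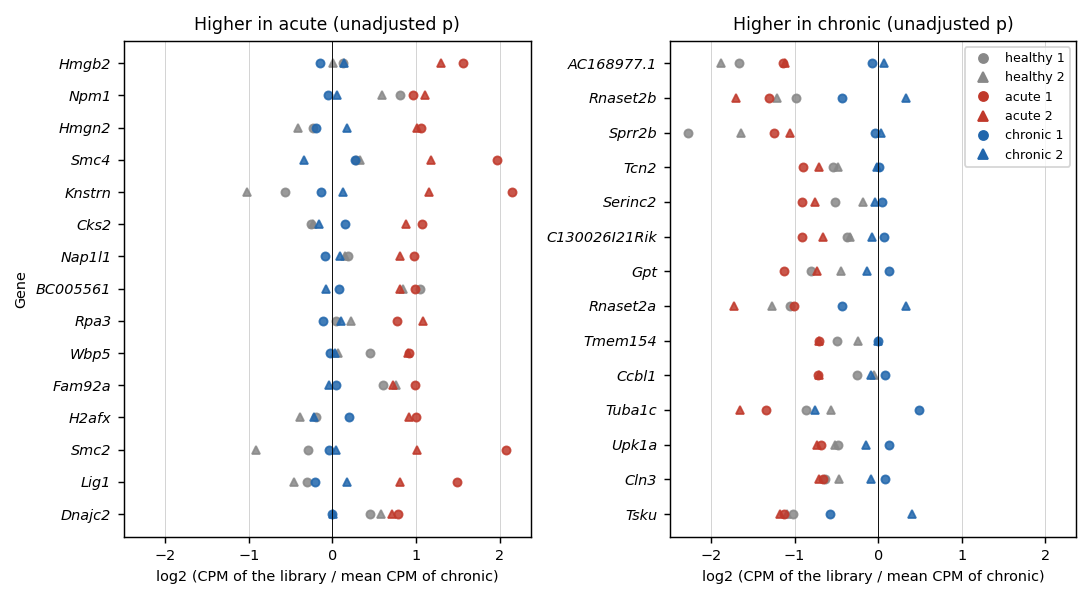
The reported genes among the 15 of smallest p in each direction, each library's CPM divided by the mean CPM of the chronic libraries, on a log2 scale, with one point per library of the acute, chronic and healthy groups. Acute and chronic libraries did not overlap for any of these genes, as the CPM of Npm1 (1140 and 1249 against 560 and 605) and Upk1a (2928 and 2820 against 5151 and 4234) show.

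The genes of smallest p that were higher in chronic injury included Upk1a, Sprr2b and Serinc2. Upk1a, one of the major uroplakins of the umbrella cell plaque, was at 2928 and 2820 CPM in acute, 5151 and 4234 CPM in chronic and 3359 and 3294 CPM in healthy libraries. The chronic libraries were the highest and the acute libraries the lowest, with no overlap among the 3 groups (log2 difference -0.71 ± 0.19, unadjusted p = 0.00615). It is ENSMUSG00000006313, on chromosome 7 from 30603092 to 30612847 in GRCm38. Sprr2b, a small proline-rich protein of the cornified envelope, was at 20.6 and 23.5 CPM in acute, 47.7 and 50.02 CPM in chronic and 10.1 and 15.6 CPM in healthy libraries. Both injuries stood above healthy cells for Sprr2b, and chronic above acute, with a log2 difference of -1.15 ± 0.24 and an adjusted p of 0.0167 by DESeq2. The same order held within each position group, with a log2 difference of -1.59 in basal-most, -1.40 in middle and -0.87 in luminal-most cells. Serinc2, a membrane protein of the serine incorporator family, was at 145 and 162 CPM in acute, 281 and 266 CPM in chronic and 191 and 241 CPM in healthy libraries.

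Cln3, a lysosomal membrane protein, was at 24.5 and 23.8 CPM in acute and 41.1 and 36.6 CPM in chronic injury. Tcn2, the vitamin B12 carrier, was at 44.4 and 50.6 CPM against 83.4 and 81.8 CPM. For Tcn2 the healthy libraries lay between, at 56.7 and 59.1 CPM. Gpt, an alanine aminotransferase, was at 30.1 and 39.6 CPM against 71.7 and 59.9 CPM, and Ccbl1, a kynurenine aminotransferase, at 65.7 and 66.0 CPM against 114 and 102 CPM. Tsku, a secreted leucine-rich protein, was at 70.2 and 67.7 CPM in acute injury and 103 and 203 CPM in chronic injury, where the chronic libraries differed widely. Rnaset2b, a ribonuclease of the lysosome, was at 43.2 and 32.9 CPM against 79.2 and 135 CPM and its near-identical copy Rnaset2a at 49.5 and 29.9 CPM against 73.5 and 125 CPM, so that reads of one cannot be told from those of the other. AC168977.1, C130026I21Rik, Tmem154 and Tuba1c were also among the 15, and Tuba1c, a tubulin with close copies, was at 161 CPM in chronic replicate 1 and 67.7 CPM in chronic replicate 2.

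As a group, the uroplakins and other umbrella cell genes leaned towards chronic injury without most of them reaching the threshold. Of 18 tested, 3 were lower in acute injury at an unadjusted p below 0.05, Upk1a, Upk2 and Trpv4, against 2.25% of all genes. The 1 higher was Upk3bl, against 4.42%. The number lower fell with either acute library or chronic replicate 1 left out. Both acute libraries lay below both chronic libraries for 9 of the 18, against 15.2% of all genes, and the median log2 difference was -0.23. The median ranged from -0.35 to -0.14 without any one of the injured libraries. Upk2, another plaque protein, was at 657 and 751 CPM in acute, 1348 and 864 CPM in chronic and 690 and 872 CPM in healthy libraries. The high library was chronic replicate 1, and chronic replicate 2 was at the healthy level. Trpv4, a stretch-sensing calcium channel, was at 61.0 and 58.0 CPM in acute and 83.2 and 90.4 CPM in chronic injury, with healthy libraries on the chronic side at 85.5 and 76.6 CPM. Upk3a, whose protein pairs with Upk1b, was at 3856 and 2932 CPM against 4752 and 3015 CPM and overlapped. The log2 difference of Upk3bl was 0.84 ± 0.31 in all cells and -0.36 in the luminal-most cells.

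Of 21 genes of the cornified envelope list, 3 were lower in acute injury at an unadjusted p below 0.05, against 2.25% of all genes, Sprr2b, Sprr2a2 and Sprr2f. The 1 higher gene was Krt14, against 4.42%, and the number higher rose with either acute library left out. The median log2 difference was -0.23, and it was 0.14 without chronic replicate 1. Sprr2f was at 106 and 191 CPM in acute, 418 and 307 CPM in chronic and 51.9 and 139 CPM in healthy libraries, and Sprr2a2 at 6.67 and 10.5 CPM in acute, 21.5 and 35.3 CPM in chronic and 4.58 and 9.14 CPM in healthy libraries. The chronic libraries were the highest for both. The Sprr2 genes are close copies of each other in 1 cluster, and their counts may be shared. Ivl, or involucrin, another envelope protein, was at 754 and 714 CPM in acute and 1015 and 892 CPM in chronic injury, with 1056 and 1013 CPM in healthy cells.

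Basal cell genes gave a mixed picture. Krt14, a keratin of a small basal population, was at 20.4 and 8.92 CPM in acute, 3.06 and 2.87 CPM in chronic and 5.63 and 18.5 CPM in healthy libraries. The chronic libraries were the lowest of all, and the healthy libraries overlapped the acute ones (log2 difference 2.30 ± 0.61, unadjusted p = 0.00661, adjusted p of 0.028 by DESeq2). Krt14 had a part in the position score, so it is not read within the position groups. The shares of the position groups were taken over the cells given a position score, so the shallower gated cells were left out. The basal-most cells were 38.1% and 44.1% of acute, 22.4% and 29.96% of chronic and 27.6% and 40.7% of healthy cells. The difference between acute and chronic injury was 14.9 percentage points, at 41.1% ± 4.25 (SD) and 26.2% ± 5.34 (SD), and the healthy libraries overlapped the acute ones. As Krt5 and Krt15 are in both the score and the rule that kept the cells, these shares are a description with no test. Middle cells were 27.2% and 26.7% of acute and 40.01% and 33.5% of chronic cells, and luminal-most cells 34.7% and 29.2% of acute and 37.6% and 36.5% of chronic cells. Among hemidesmosome and integrin genes, which anchor basal cells, 3 of 18 tested were higher in acute injury at an unadjusted p below 0.05, against 4.42% of all genes, and 0 lower, with a median log2 difference of 0.04. Without chronic replicate 1 the median was -0.10, and without acute replicate 1 it was -0.16, both with fewer genes higher. The 3 were Itga2, at 12.3 and 21.5 CPM against 5.20 and 4.09 CPM, Itga6, at 136 and 104 CPM against 80.7 and 80.4 CPM, and Col17a1, at 21.8 and 19.4 CPM against 8.44 and 13.0 CPM. For Itga2 the healthy libraries were far apart, at 19.9 and 4.83 CPM, and overlapped both injuries. They stood at 160 and 126 CPM for Itga6 and at 13.5 and 29.6 CPM for Col17a1. The log2 difference of Col17a1 was -0.46 in the luminal-most cells.

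Urothelial transcription factors came next. Of 28 tested, 3 were higher in acute injury at an unadjusted p below 0.05, against 4.42% of all genes, and 0 lower, and the median log2 difference was 0.10. The number higher fell with any injured library left out, and the number lower rose without acute replicate 1 and without chronic replicate 2. Klf5, an epithelial zinc-finger factor, was at 294 and 520 CPM in acute, 231 and 218 CPM in chronic and 302 and 232 CPM in healthy libraries. Acute replicate 2 was far above the rest, and the log2 difference was 0.78 in basal-most, 0.77 in middle and 0.82 in luminal-most cells, with no overlap in any of them. Id2, an inhibitor of basic helix-loop-helix factors, was at 399 and 562 CPM against 299 and 286 CPM, and Klf4, a factor of epithelial differentiation, at 409 and 214 CPM against 169 and 203 CPM. Healthy levels were 363 and 610 CPM for Id2 and 308 and 297 CPM for Klf4. The lower acute library of Klf4 was close to the higher chronic one. Trp63, the basal cell factor p63, was at 149 and 136 CPM in acute and 118 and 190 CPM in chronic injury, and Foxa1, a factor of urothelial identity, at 348 and 247 CPM against 251 and 342 CPM. Both overlapped. Of 18 tight junction genes 0 were higher in acute injury at an unadjusted p below 0.05 and 1 was lower, against 2.25% of all genes. Both numbers moved with 1 injured library left out. The lower gene was Cldn3, which was under 3 CPM in every library, and the list's median was 0.04.

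The lists of metabolism differed from each other. Of 34 genes of sterol and fatty acid synthesis, 3 were lower in acute injury at an unadjusted p below 0.05, against 2.25% of all genes, and 0 were higher. The number lower rose without acute replicate 1 and fell without acute replicate 2 or chronic replicate 2. Both acute libraries lay below both chronic libraries for 13, against 15.2% of all genes, and the median log2 difference was -0.27, or -0.10 without acute replicate 2. Fdft1, or squalene synthase, was at 66.0 and 51.3 CPM in acute, 97.3 and 92.4 CPM in chronic and 76.3 and 69.7 CPM in healthy libraries. Msmo1, a methylsterol oxidase of the same pathway, was at 132 and 100 CPM against 156 and 178 CPM, and Tm7sf2, a sterol reductase, at 16.2 and 19.0 CPM against 24.5 and 24.7 CPM. For Tm7sf2 and Msmo1 the healthy libraries were on the acute side. Hmgcs1, a target of the sterol-sensing factor SREBP2 chosen after its values were seen, overlapped between the groups.

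Of 27 genes of glycolysis and hypoxia, 11 had both acute libraries below both chronic libraries, against 15.2% of all genes, and 0 above, against 18.6%. At an unadjusted p below 0.05, 2 were lower, against 2.25%, and 1 higher, against 4.42%. The median log2 difference was -0.37, and -0.19 without chronic replicate 1. Pkm, pyruvate kinase, was at 741 and 799 CPM in acute, 1350 and 971 CPM in chronic and 784 and 862 CPM in healthy libraries, and Pfkl, a phosphofructokinase, at 26.9 and 35.2 CPM against 44.6 and 42.6 CPM. Chronic replicate 1 was the highest library for Pkm. The higher member was Pgk1, at 98.6 CPM in acute replicate 2 and 3.33 to 10.1 CPM in the other 5 libraries. Without acute replicate 2 the log2 difference of Pgk1 was -0.39, and why that library stood apart was not tested. The 45 genes of oxidative phosphorylation had 0 at an unadjusted p below 0.05 in either direction and a median of 0.03. Without chronic replicate 2 the median was -0.12 and without acute replicate 2 it was -0.19, and in both the number lower rose.

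Detoxification genes, which handle acrolein and other reactive compounds, included 4 of 49 lower in acute injury at an unadjusted p below 0.05, against 2.25% of all genes, and 0 higher, with a median log2 difference of -0.12. Without chronic replicate 1 the median was 0.09 with fewer genes lower, and without chronic replicate 2 it was -0.29 with more genes lower. Gstm1, a glutathione transferase, was the most abundant, at 17065 and 22944 CPM in acute, 36798 and 24911 CPM in chronic and 22868 and 25947 CPM in healthy libraries. Chronic replicate 1 was the high library, and chronic replicate 2 lay within the healthy range. Akr1b3, an aldose reductase, was at 1783 and 1769 CPM against 3264 and 2114 CPM, Fmo5, a flavin monooxygenase, at 1662 and 1526 CPM against 2260 and 2154 CPM, and Gss, glutathione synthetase, at 26.1 and 31.8 CPM against 45.2 and 39.0 CPM. Hmox1, the haem oxygenase induced by oxidative stress, was at 82.4 and 62.3 CPM in acute and 88.7 and 83.1 CPM in chronic injury, against 45.6 and 21.3 CPM in healthy cells.

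Of 16 ligands and receptors of the EGF family, 2 were higher in acute injury at an unadjusted p below 0.05, against 4.42% of all genes, and 0 lower, and the median log2 difference was 0.29. The median was -0.18 without acute replicate 1 and 0.50 without acute replicate 2. Both higher genes were neuregulins, ligands of the receptors ErbB3 and ErbB4. Nrg1 was at 6.18 and 3.99 CPM in acute, 1.89 and 1.72 CPM in chronic and 4.87 and 7.35 CPM in healthy libraries, and Nrg2 at 3.93 and 3.53 CPM, 1.22 and 2.23 CPM, and 5.11 and 4.74 CPM in the same order. The chronic libraries were the low ones for both, with acute and healthy cells nearer each other. Areg and Hbegf, ligands of the EGF receptor that injured epithelia secrete, were at 730 and 246 CPM against 457 and 295 CPM, and at 778 and 471 CPM against 604 and 419 CPM, and overlapped.

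Of 49 genes of FGF, Wnt, Hedgehog, BMP, Notch and retinoid signalling, 6 were higher in acute injury at an unadjusted p below 0.05, against 4.42% of all genes, and 0 lower, with a median log2 difference of 0.15. Without chronic replicate 1 the median was 0.0053, and without chronic replicate 2 it was 0.38. In both, and without acute replicate 2, fewer genes were higher. The 4 of smallest p were Wnt10a, Spry1, Rbp4 and Smad7. Wnt10a, a secreted Wnt ligand, was at 8.09 and 5.85 CPM in acute and 2.73 and 2.37 CPM in chronic injury, and Spry1, a feedback inhibitor of receptor tyrosine kinases, at 34.8 and 39.4 CPM against 15.5 and 22.4 CPM. For Spry1 the healthy libraries, at 47.1 and 30.5 CPM, were on the acute side. Smad7, an inhibitor of TGF-beta signalling, was at 23.7 and 23.04 CPM against 13.0 and 17.6 CPM, with 25.1 and 23.1 CPM in healthy libraries. Shh, the Hedgehog ligand of basal cells, was at 141 and 163 CPM in acute and 163 and 224 CPM in chronic injury, which did not separate beyond the spread (log2 difference -0.35 ± 0.22).

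Stress and immune genes were spread on both sides. Of 32 immediate-early genes, 1 was higher in acute injury at an unadjusted p below 0.05, Klf4, against 4.42% of all genes. The 1 lower was Socs3, against 2.25%. The median was 0.10, and it was 0.0067 without acute replicate 1 and 0.026 without acute replicate 2. Of 31 heat shock and unfolded protein genes, 3 were higher, against 4.42% of all genes, and 1 lower, against 2.25%, with a median of 0.04. Without acute replicate 2 the median was -0.19, with fewer genes higher and more lower, and without chronic replicate 1 fewer genes were higher. In all libraries the higher ones were cytosolic or mitochondrial chaperones, Hsp90ab1 at 2372 and 3142 CPM in acute and 1629 and 1942 CPM in chronic injury, Hsp90aa1 at 188 and 271 CPM against 162 and 135 CPM, and Hspe1 at 778 and 919 CPM against 449 and 647 CPM. Healthy levels were 2360 and 2397 CPM for Hsp90ab1, 153 and 142 CPM for Hsp90aa1 and 799 and 712 CPM for Hspe1. For Hsp90ab1 and Hspe1 the healthy mean was nearer to the acute mean, and for Hsp90aa1 to the chronic mean. The lower one was Calr, a chaperone of the endoplasmic reticulum, at 252 and 280 CPM against 384 and 351 CPM. Of 41 interferon response genes, 1 was higher, against 4.42% of all genes, and 2 lower, against 2.25%, with a median of 0.04. Without acute replicate 1 the median of the interferon list was 0.014, with more genes higher and fewer lower.

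Of 21 antigen presentation genes, 11 had both acute libraries below both chronic libraries, against 15.2% of all genes, and 1 above, against 18.6%, and the median log2 difference was -0.35. The number lower at an unadjusted p below 0.05 was 1, against 2.25% of all genes. With called doublets left out it was 5 of 21, beside 331 of 13839 genes tested. In the 4 injured libraries alone it was 0 of 21, beside 294 of 13802. With a keratin sum of at least 10 it was 0 of 21, beside 289 of 13944. At that keratin limit 6 of the 21 had both acute libraries below both chronic libraries, beside 2103 of 13944. The number lower also rose or fell with single libraries left out. Without acute replicate 2 the list's median was -0.40. The 1 gene in all gated cells was H2-Eb1, at 21.2 and 33.7 CPM against 36.7 and 51.0 CPM. The acute libraries were the lower ones for H2-Eb1 and were close to the healthy libraries, at 29.6 and 35.7 CPM. Macrophage markers moved with these class II genes. The CPM of 13 macrophage and myeloid markers, 2 of which are in the antigen presentation list, summed to 53.5 and 164 in acute and 182 and 227 in chronic injury. Of the 13, 8 had both acute libraries below both chronic libraries, against 15.2% of all genes. C1qa, also of the 13, was at 3.05 and 10.6 CPM against 9.92 and 11.1 CPM and overlapped. The part of these cells in the result was not tested. Of 25 antimicrobial and antiprotease genes, 0 were higher at an unadjusted p below 0.05, against 4.42% of all genes, and 1 was lower, against 2.25%, Lyz2, itself a macrophage marker, with a median of -0.24. That median was 0.05 without chronic replicate 1 and -0.55 without chronic replicate 2.

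Of 33 cytokine, chemokine and alarmin genes, 2 were higher in acute injury at an unadjusted p below 0.05, near the 4.42% of all genes, and 3 lower, against 2.25%, with a median of -0.08. Both numbers fell without acute replicate 2 and without either chronic library. Ptgs2, the inducible cyclooxygenase, was at 21.2 and 16.1 CPM in acute and 6.14 and 10.4 CPM in chronic injury, with 13.5 and 9.80 CPM in healthy cells. The other higher member was Cxcl14, at 211 CPM in acute replicate 2 and 8.37 to 38.5 CPM elsewhere. The lower ones, Cfb, Tnf and Il1b, were under 8 CPM in every library. Of 23 gasdermin and cell death genes, 1 was higher and 0 were lower, with a median of 0.01. Of 27 genes of matrix remodelling and wound repair, 1 was higher and 1 lower, with a median of 0.07. Without acute replicate 1 that median was -0.20, with more genes in either direction. The shares over all genes are again 4.42% and 2.25%. In all libraries the lower one was Has1, a hyaluronan synthase, at 3.05 and 0.979 CPM against 7.39 and 6.68 CPM, and the higher one, Inhba, was under 1 CPM in every library.

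Markers of other cells in the gated libraries were uneven. Of 20 mesenchymal markers, 19 were tested, and their CPM summed to 203 and 1113 in acute, 488 and 288 in chronic and 468 and 397 in healthy libraries. Their median log2 difference was 0.24. The high library was acute replicate 2, without which the median was -0.99, and without acute replicate 1 it was 0.89. In that high library Car3 stood at 109 CPM and Cxcl14 at 211 CPM. The 10 mural and smooth muscle markers summed to 147 and 210 in acute, 125 and 113 in chronic and 137 and 102 in healthy libraries. Their median log2 difference was 2.07, above that of any pathway list, with 4 of the 10 higher in acute injury at an unadjusted p below 0.05 against 4.42% of all genes, and it was 0.15 without acute replicate 2. The 10 endothelial markers summed to 19.2 and 31.0, 18.2 and 24.9, and 17.3 and 14.1, and the 6 markers of NK and T cells to 4.76 and 10.8, 4.49 and 4.74, and 26.7 and 16.7. The median of the endothelial list was 0.36, and -0.63 without acute replicate 2. For NK and T cells it was 1.73, and 0.30 without acute replicate 2. Of these 6 markers, 3 were higher at an unadjusted p below 0.05, against 4.42% of all genes. The part of these cells in the other results was not tested beyond the values below. The 3 erythroid markers summed to 17.0 and 0.876 in acute, 63.8 and 8.91 in chronic and 472 and 370 in healthy libraries, and the 4 Schwann and neural markers to between 4.70 and 7.65 in the injured libraries. Of the lists, 13 of 15 macrophage, 6 of 11 NK and T cell, 3 of 5 erythroid and 4 of 6 Schwann and neural markers were in all 6 tables, and of the markers in all 6 tables none was at 0 in all libraries. In cells without any UMI of the 4 stromal genes, the median log2 difference was 1.53 for the G2 and M list, 0.92 for the S list and -0.35 for the uroplakin list, beside 1.75, 0.82 and -0.23 in all gated cells. There both acute libraries lay above both chronic libraries for 33 of 49 G2 and M genes and 16 of 41 S genes, beside 1951 of 12114 genes tested. In all gated cells these were 43 of 52 and 32 of 42, beside 2579 of 13901. Krt7, which the rule used, was at 2245 and 2282 CPM in acute and 4106 and 2616 CPM in chronic injury, and Krt18 at 4933 and 4157 CPM against 4676 and 4009 CPM, given as a description only.

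The healthy libraries were set beside the genes of either direction. Of 585 genes higher in acute injury at an unadjusted p below 0.05 and without overlap, the healthy mean was nearer to the chronic mean for 371 and nearer to the acute mean for 214. Of 311 genes higher in chronic injury by the same measure, the healthy mean was nearer to the acute mean for 219 and nearer to the chronic mean for 92. Without the limit on p, the healthy mean was nearer to chronic for 46.0% of the 2579 genes with both acute libraries above both chronic libraries and for 43.6% of the 2119 genes with both below, so that the split of the genes higher in acute injury turned with the limit on p. Hmgb2 and Sprr2b were genes in which the higher level stood apart from healthy cells, and Npm1, Nrg1 and Nrg2 genes in which the lower, chronic level did. These counts use the acute and chronic levels that chose the genes and are given without a test.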

How the data were processed

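Droplet-based single-cell RNA sequencing (10x Genomics 3′ chemistry) was done on bladder mucosa in 6 libraries, 2 per group. The authors ran Cell Ranger (mm10, as the submitters' processing notes give it) and deposited raw UMI counts per gene and cell, whole numbers without normalization, 1 table per library. The table of healthy replicate 1 stops within its last line. Cells above about 10% mitochondrial UMIs were already absent. Genes were joined by Ensembl ID, and 14450 genes were listed in all 6 tables, 103 mitochondrial or ribosomal protein genes of which were left out.

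UMIs of the gated cells were summed per library and fitted with edgeR 4.0.16 in R 4.3.3 (TMM scaling, filterByExpr, quasi-likelihood test, all 6 libraries in 1 fit with the group as factor), with Benjamini-Hochberg adjustment over 13901 genes and a threshold of 0.05. DESeq2 1.42.0 was an alternative, and 539 of its adjusted p-values were NA. Thinning and counting used scipy 1.17.1, pandas 2.3.3 and numpy 2.4.6 under Python 3.11.15, and doublets were called at 0.8% per 1000 cells with scores of scanpy 1.11.5 (4.42% to 8.83% of the gated cells, kept in the main values). Libraries shared 36 to 229 cell barcodes pairwise. Shares were compared with exact two-sided permutation tests over libraries. The fit was tested on simulated counts with known changes. Replicates of a group differed by a chi-square of 80.7 to 145 per gene, so none was counted as 1 library deposited more than once.

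The named genes were the 15 of smallest p in each direction with a mean of at least 20 CPM and no overlap (by unadjusted p, as none passed the adjusted one by edgeR), up to 4 members of smallest p per list, and Y-linked genes, without the genes of the gate. Some genes that the rule or a list holds are not reported here. Other genes are named because they are well known and were chosen after their values were seen. The comparison, its members and the 23 pathway lists were chosen with earlier results of these data known. Gene positions are from GENCODE (GRCm38). Alternatives were another normalization and tool, no filter, other gates and limits, single libraries left out, and a replicate block. The number of libraries limits the precision.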

Additional observations from a re-analysis of the deposited data

How the results depend on the processing

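The directions of the 117 named genes held in 2778 of 2787 values under the alternatives, and none of the 30 genes of smallest p reversed. Those 30 were chosen for no overlap between acute and chronic libraries, and most other named genes for a small p in these data. Their directions were thus largely fixed by the choice, and these counts are a description only. The 9 reversed log2 differences were those of Psrc1 in cells under the limit of 3 cycling UMIs (-0.10), Upk3bl (-0.36) and Col17a1 (-0.46) in luminal-most cells, and, with single libraries left out, Pgk1 and Tnc without acute replicate 2, Cldn7 without chronic replicate 1, Ddx3y without acute replicate 1, and Uty without acute replicate 1 and without chronic replicate 1. Over the libraries left out, the log2 difference ranged from -0.39 to 3.76 for Pgk1, -0.50 to 4.92 for Tnc, -0.89 to 0.0017 for Cldn7, -0.15 to 0.56 for Ddx3y and -0.31 to 0.33 for Uty, and the cause was not tested. The edgeR counts of 0 genes in each direction held under every alternative but leaving out acute replicate 1, where they were 39 and 24 (the remaining acute library is taken to vary like the other groups), so that the range over single libraries left out was 0 to 39 and 0 to 24. DESeq2 gave 53 and 18. Of 744 list medians, 103 moved by over 1 SD between replicates, the SD being taken from the median log2 ratio of replicates over the list. The difference in the share of cells with at least 3 cycling UMIs, -2.41 percentage points, reversed to 5.78 at a limit of 5 UMIs, 8.74 at 10 UMIs and 3.57 in unthinned cells, and ranged from -11.0 to 6.13 over left-out libraries, reversing without acute replicate 2 (4.46) and without chronic replicate 1 (6.13). Scaling by DESeq2's size factors (RLE) in edgeR moved the unadjusted counts from 614 and 313 to 570 and 380. The deviations of libraries with the same replicate number had a correlation of -0.17 between acute and chronic, -0.37 between chronic and healthy and 0.25 between acute and healthy. With 2 libraries per group these values cannot decide whether libraries pair, and the main fit used no pairing. With a replicate block 0 genes passed and the unadjusted counts were 471 and 229. With the numbers of the chronic libraries exchanged, a pairing added after the data were seen, they were 880 and 660, again with 0 passing. Values under 1 CPM, as for Inhba, rest on the fewest UMIs and are the least precise.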
